A study of Homo sapiens with 33 samples.

Results

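The genes examined here were the insulin-like growth factor (IGF) ligand IGF1, the receptors IGF1R and IGF2R, and the binding proteins IGFBP1 to IGFBP7. They are the 10 genes, of 58735 in the count table, whose symbol is one of these names, and they were followed in all 33 libraries. Bulk RNA-seq was made from H9-DDdCas9VP192-FOXL2 clone 24, 1 clone derived from H9, an established line of human embryonic stem cells, that carries an inducible activator of the transcription factor FOXL2. All cells went through a 14-day gonadal differentiation. Day 4 cells were collected before induction, CTRL cells never received doxycycline or trimethoprim, and IND cells received both compounds from day 4 onwards, which switched on the activator and hence FOXL2. CTRL and IND were collected on days 6, 8, 10, 12 and 14, giving 11 groups of 3 libraries. No group received the compounds without activation, so the effect of FOXL2 and that of the compounds cannot be told apart. The 3 libraries of a group were technical replicates of 1 biological replicate, and the p-values below therefore measure only the spread between such replicates.

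IGFs are secreted growth factors that act through IGF1R, a receptor tyrosine kinase related to the insulin receptor. IGF2R, also known as the cation-independent mannose 6-phosphate receptor, takes up IGF2 and delivers it to lysosomes without tyrosine kinase signalling. The IGF binding proteins (IGFBPs) hold IGFs in the extracellular space and either limit or prolong their action, and proteases such as PAPPA release the growth factor by cutting them. In the ovary, this system is known for modulating the response of granulosa cells to gonadotropins, and FOXL2 is a transcription factor of the granulosa lineage.

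The libraries held from 23940837 to 51912815 counts (median 41420455), and 3 counts, taken as the limit of detection, corresponded to between 0.0574 and 0.126 CPM (counts scaled to a common library size, TMM-normalized). The level of FOXL2 itself ran from 148.9 to 570.4 CPM with induction and from 0.02032 to 0.3777 CPM in CTRL and on day 4. Day 10 IND replicate 2 stood apart. It had the smallest total, its mean distance to the other replicates of its group was 251.5, and no library of another group exceeded 138.7. Its share of mitochondrial counts was 0.691%, the lowest of all libraries (median 2.88%). The day 10 differences between IND and CTRL are given with and without this library below. In these bulk samples, fewer cells of a type and less RNA per cell cannot be told apart.

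The genes lie on several chromosomes of GRCh38. IGFBP2 (216632828 to 216664436, plus strand) and IGFBP5 (216672105 to 216695525, minus strand) are neighbours on chromosome 2, and their ends face each other across 7668 bp. On chromosome 7, IGFBP1 (45888357 to 45893668, plus strand) and IGFBP3 (45912245 to 45921874, minus strand) also converge, with a gap of 18576 bp. IGFBP7 covers 57030773 to 57110385 of the minus strand of chromosome 4, and IGFBP4 and IGFBP6 lie on chromosomes 17 and 12. IGF1, IGF1R and IGF2R lie on chromosomes 12, 15 and 6. The libraries were non-directional, so reads of genes that overlap on opposite strands could not be assigned to a strand. This affects IGF1 most, because 82.4% of its 8122 exonic bases lie within HELLPAR, a non-coding RNA gene on the other strand that had between 18 and 92 counts. IGFBP7 shares 14% of its 1930 exonic bases with POLR2B, an RNA polymerase II subunit gene with 2298 to 8916 counts, and 4.87% with IGFBP7-AS1, which had at most 11 counts.

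Sequence before the RefSeq start is shown for IGFBP3 and IGFBP5, which were upregulated both in differentiation and after induction, and for IGFBP4, which was not called after induction on any day. Each line holds the 250 bases before the start of the RefSeq gene (GRCh38.p14), written 5′ to 3′ on the strand of the gene. RefSeq and the annotation used for counting place some starts differently, and the IGFBP3 window lies inside the counted gene, with 2 of its bases in an annotated exon, while the windows of IGFBP4 and IGFBP5 lie outside the counted genes. Capitals mark matches, on either strand, to the GC box, whose letters are GGGCGG. They also mark matches to the TATA box, whose letters are TATAAA. The windows are chr7:45921273-45921522 for IGFBP3, chr2:216695550-216695799 for IGFBP5, both on the minus strand, and chr17:40443200-40443449 on the plus strand for IGFBP4.
IGFBP3: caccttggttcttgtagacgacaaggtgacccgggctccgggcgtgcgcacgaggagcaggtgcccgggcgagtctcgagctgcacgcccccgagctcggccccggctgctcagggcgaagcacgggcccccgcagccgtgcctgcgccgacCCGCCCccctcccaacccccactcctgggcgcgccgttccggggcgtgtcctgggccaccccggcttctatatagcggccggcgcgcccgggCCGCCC
IGFBP5: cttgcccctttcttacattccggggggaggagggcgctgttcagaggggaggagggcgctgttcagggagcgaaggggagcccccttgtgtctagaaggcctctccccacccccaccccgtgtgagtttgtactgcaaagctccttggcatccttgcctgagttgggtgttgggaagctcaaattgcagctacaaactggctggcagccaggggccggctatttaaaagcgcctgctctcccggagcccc
IGFBP4: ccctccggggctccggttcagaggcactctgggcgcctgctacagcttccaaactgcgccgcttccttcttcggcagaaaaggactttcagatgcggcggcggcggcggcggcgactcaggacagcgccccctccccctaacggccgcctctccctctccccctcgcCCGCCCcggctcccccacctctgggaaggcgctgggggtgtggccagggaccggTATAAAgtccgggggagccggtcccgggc

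Of the 10 genes, 8 had an entry in the RefSeq table, with 11 windows in all, and IGFBP1 and IGFBP7 had none. The IGFBP3 window had a GC content of 76% with 2 GC boxes, and the IGFBP4 window had 71.6% with 1 GC box and a TATA box 29 to 24 bases before the start. The IGFBP5 window had a GC content of 61.2% and none of these motifs, and the IGF2R window had 6 GC boxes, of which 2 overlapped. GTAAACA, the core letters bound by forkhead factors such as FOXL2, was found in 1 window of IGF1 and in that of IGFBP6, both strands having been searched. The IGFBP6 match lies inside the gene as counted, where 231 of the 250 bases of its window are annotated as exon. Over all 35116 windows of the same length, GTAAACA was found in 2.98%, TATAAA in 10.7% and GGGCGG in 42.6%. These are matches of letters and were not tested for binding.

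The first question was how these genes changed during differentiation alone (DIFF, CTRL against day 4). Each comparison used edgeR's quasi-likelihood test over the 6 libraries of its groups, and a gene was called at a Benjamini-Hochberg adjusted p under 0.05 over all genes tested. IGFBP3, IGFBP5 and IGF1R were upregulated on all 5 days, IGFBP7 on 4 days and IGFBP4 on 3 days, while IGF1, IGFBP2 and IGFBP6 were each downregulated on some days. On day 6, 4 of the 9 tested genes were called, against 21.6% of all genes tested. The number was 6 of 9 on day 8 (37.1% of all genes), 7 of 9 on day 10 (45.1%), 5 of 9 on day 12 (48.1%) and 6 of 9 on day 14 (47.6%). CTRL and day 4 libraries did not overlap for 39.4%, 51.2%, 57%, 59.1% and 58.2% of all genes on these days. The median log2 fold change of the tested members lay between 0.37 and 0.66, and that of all genes between -0.01 and 0.

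**Figure D1:**
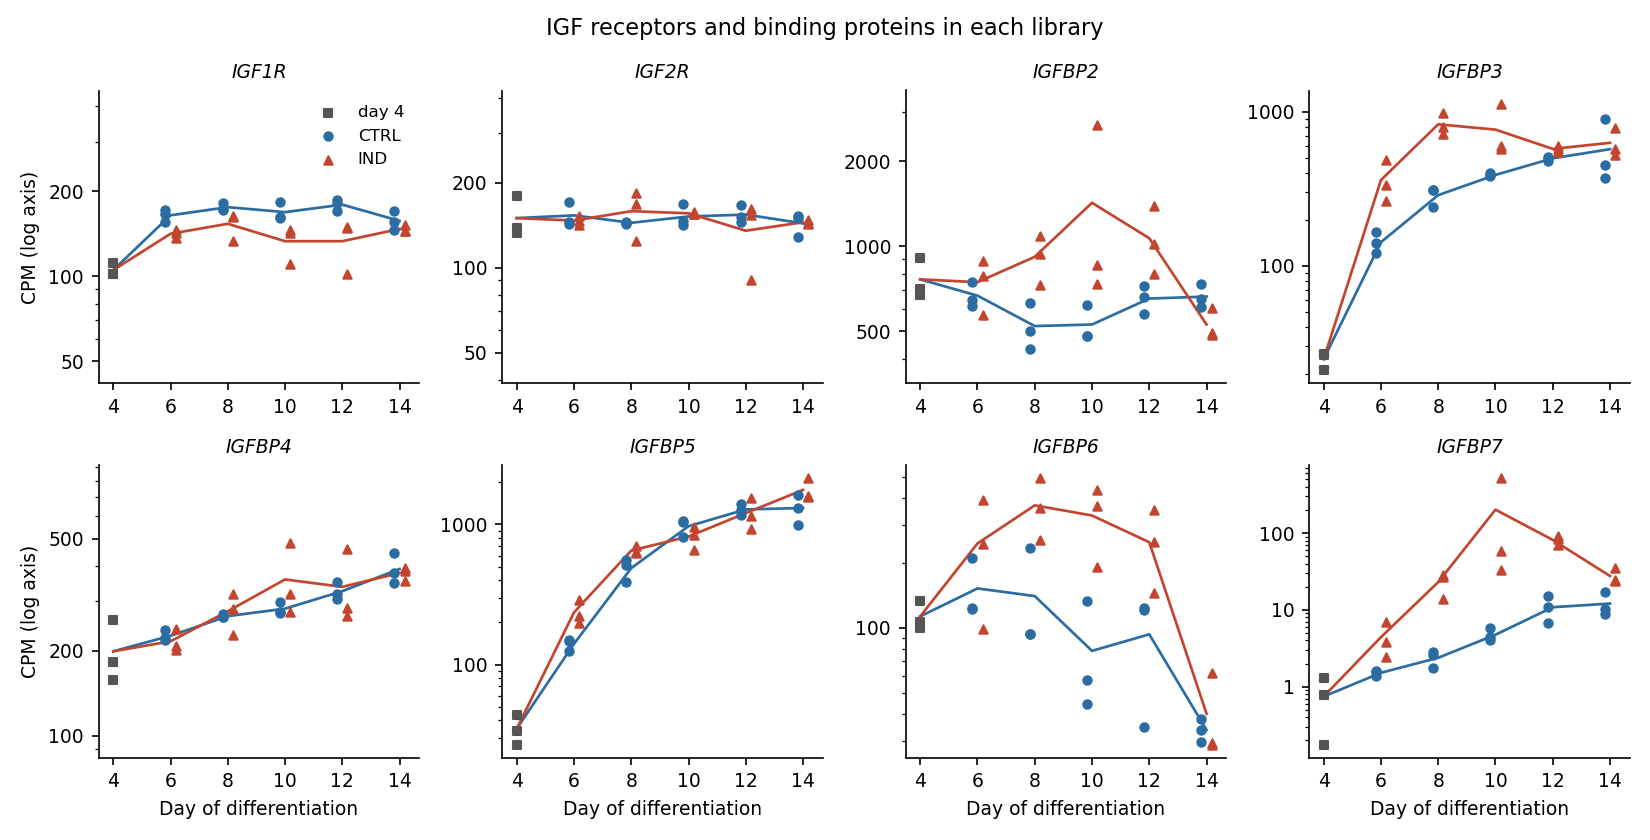
CPM (log axis) of 8 members against the day of differentiation, with 1 point per library and lines through the group means from day 4. Squares are day 4, circles CTRL and triangles IND. IGFBP3 and IGFBP5 have at most 44.0 CPM on day 4 and at least 374 CPM on day 14, and IGFBP7 is higher in every IND library than in every CTRL library of the same day.

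IGFBP5, a binding protein that also attaches to extracellular matrix, had the largest log2 fold change among the members in CTRL against day 4 on days 8 to 14, but not on day 6. Its level was 44.0, 33.7 and 26.9 CPM on day 4, and 151, 147 and 124 CPM in day 6 CTRL. It was 389, 560 and 515 CPM in day 8 CTRL, 1060, 1040 and 812 CPM on day 10, 1160, 1270 and 1410 CPM on day 12, and 1320, 998 and 1610 CPM on day 14. Every CTRL library was above every day 4 library, with log2 fold changes from 1.99 ± 0.18 (SE) on day 6 to 5.18 ± 0.26 on day 14, and edgeR's Benjamini-Hochberg adjusted p from 2.43e-05 to 1.26e-06 on these days. In the order of the 11 group means, from day 14 IND to day 4, the neighbours overlapped from the top down to day 8 IND, and from there to day 4 no 2 neighbours overlapped.

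IGFBP3, the main carrier of IGFs in the circulation, followed a similar path. Day 4 had 21.1, 26.8 and 26.5 CPM, day 6 CTRL 121, 166 and 141 CPM, and day 8 CTRL 242, 311 and 312 CPM. The CTRL libraries then had 400, 382 and 388 CPM on day 10, 505, 513 and 483 CPM on day 12, and 451, 374 and 895 CPM on day 14. Groups did not overlap with day 4 on any day, and the log2 fold change went from 2.5 ± 0.15 (adjusted p = 1.88e-06) on day 6 to 4.48 ± 0.33 (adjusted p = 7.74e-06) on day 14. Day 14 replicate 3 was far above the other replicates of its group, and the SE was largest on that day.

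IGFBP7, a low-affinity IGF binder found around vessels and in matrix, was close to the limit of detection on day 4. It had 0.177, 0.771 and 1.29 CPM on day 4, 1.62, 1.40 and 1.54 CPM in day 6 CTRL, and 1.74, 2.84 and 2.57 CPM in day 8 CTRL. The CTRL level then was 4.42, 4.06 and 5.79 CPM on day 10, 6.73, 10.8 and 15 CPM on day 12, and 10.4, 8.77 and 17.1 CPM on day 14. All CTRL libraries from day 6 onwards lay above all day 4 libraries. The test was passed on day 8 (log2 fold change 1.61 ± 0.54, adjusted p = 0.0435), day 10 (2.61 ± 0.49, 0.00252), day 12 (3.79 ± 0.54, 0.000622) and day 14 (3.95 ± 0.51, 0.000229), but not on day 6 (0.99 ± 0.54, 0.216). The day 8 call was lost without any 1 of day 8 CTRL replicates 1, 2 and 3 or day 4 replicates 1 and 2, with adjusted p between 0.0595 and 0.13. Without day 4 replicate 3, the highest of its group, the log2 fold changes on days 8 to 14 were 2.27, 3.27, 4.46 and 4.60, and day 6 was called (1.62, adjusted p = 0.0216).

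IGFBP4, an inhibitory binding protein and the best known substrate of PAPPA, changed less. It had 183, 158 and 257 CPM on day 4 and 349, 443 and 379 CPM in day 14 CTRL, groups that did not overlap. Its upregulation was called on day 10 (log2 fold change 0.46 ± 0.16, adjusted p = 0.0453), day 12 (0.66 ± 0.17, 0.0108) and day 14 (0.93 ± 0.18, 0.00237). Leaving out day 10 CTRL replicate 1, 2 or 3 or day 4 replicate 1 or 2 ended the day 10 call (adjusted p between 0.0866 and 0.148), as did the replicate block (0.053), and leaving out day 4 replicate 1 ended that of day 12 (0.0517). Leaving out day 4 replicate 3 instead added calls on day 6 (0.37, adjusted p = 0.0229) and day 8 (0.60, 6.69e-05).

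IGFBP6, which prefers IGF2 over IGF1, was lower at the end of differentiation. Its 106, 133 and 99.5 CPM on day 4 became 33.5, 37.8 and 29.6 CPM in day 14 CTRL, without overlap (log2 fold change -1.79 ± 0.15, adjusted p = 1.58e-05). The earlier CTRL groups overlapped with day 4 and were not called. Their libraries were widely spread, with 93.6, 233 and 93.7 CPM on day 8, 57.0, 44.4 and 133 CPM on day 10, and 34.6, 121 and 124 CPM on day 12. Without replicate 3 of day 10 CTRL, that day was called as well (-1.19, adjusted p = 0.00159).

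IGFBP2, the most abundant binding protein of the day 4 cells, showed a shallow dip. It had 708, 675 and 909 CPM on day 4, 434, 630 and 502 CPM in day 8 CTRL, and 482, 482 and 622 CPM in day 10 CTRL. These groups lay below day 4 in every library, with log2 fold changes of -0.60 ± 0.16 (adjusted p = 0.0171) on day 8 and -0.58 ± 0.15 (adjusted p = 0.0105) on day 10. The day 8 call was lost without day 8 CTRL replicate 1 (adjusted p = 0.0777) or 3 (0.0708), and the day 10 call without day 10 CTRL replicate 1 (0.0588) or 2 (0.0549). CTRL on days 6, 12 and 14 overlapped with day 4 and did not pass the test.

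Both receptors were present throughout. IGF1R had 102, 112 and 102 CPM on day 4, below each of the 15 CTRL libraries of later days, which had between 146 and 187 CPM. Its upregulation lay between a log2 fold change of 0.53 ± 0.10 on day 14 (adjusted p = 0.00256) and 0.71 ± 0.09 on day 12 (0.000241). IGF2R had 138, 132 and 179 CPM on day 4 and between 128 and 171 CPM in the CTRL libraries, with log2 fold changes from -0.11 to 0.01, none of which was called. All 11 groups of IGF2R overlapped with their neighbours in the order of means, the highest mean (159 CPM, day 8 IND) being 1.18 times the lowest (135 CPM, day 12 IND).

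IGF1 and IGFBP1 were barely expressed. IGF1, the ligand, had 0.812, 2.01 and 0.346 CPM on day 4 (11 to 60 counts), and between 0.0295 and 0.56 CPM in the CTRL libraries. It was called lower on day 6 (log2 fold change -3.71 ± 0.83, adjusted p = 0.00856), day 8 (-3.55 ± 0.76, 0.00641) and day 10 (-2.65 ± 0.70, 0.0135), and these calls rest on few counts and on a gene whose exons are mostly shared with the opposite strand. The fold changes depend on day 4 replicate 2, without which they were -2.84, -2.67 and -1.76, the last no longer called (adjusted p = 0.0572). Leaving out replicate 2 of day 6 CTRL moved the day 6 value to -4.65, replicate 1 or 3 ended its call (0.0657 and 0.0506), and replicate 1 of day 10 CTRL ended that of day 10 (0.0689). IGF1 was called on day 12 without day 12 CTRL replicate 3 or day 4 replicate 3 (0.0421 and 0.0164), and on day 14 without day 4 replicate 3 (0.00709). IGFBP1, a binding protein made mainly by liver and decidua, had at most 20 counts (0.454 CPM) in any library and was removed by the low-count filter in every comparison with day 4.

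Levels of different genes were compared per length with the deposited FPKM (fragments scaled to gene length and library size). On day 4, IGFBP2 had 163 ± 26 FPKM (SD, n = 3), IGFBP4 92.3 ± 23.4 and IGFBP6 85.5 ± 13.9 FPKM, while IGF2R had 8.54 ± 1.40, IGF1R 7.72 ± 0.46, IGFBP3 5.54 ± 0.72 and IGFBP5 5.53 ± 1.37 FPKM. In day 14 CTRL, IGFBP5 had 204 ± 48.1, IGFBP4 178 ± 22.2, IGFBP2 140 ± 13.5 and IGFBP3 126 ± 62 FPKM, against 25.1 ± 3.03 FPKM for IGFBP6 and 6.28 ± 2.31 FPKM for IGFBP7. Of the summed FPKM of the 7 IGFBP genes, IGFBP2 held 46.2% ± 2.39 (SD, n = 3) on day 4 and 20.9% ± 3.64 in day 14 CTRL. IGFBP5 went from 1.6% ± 0.53 to 29.9% ± 4.48, IGFBP3 from 1.57% ± 0.21 to 18% ± 6.18, and IGFBP6 from 24.6% ± 5.81 to 3.77% ± 0.87. IGFBP4 held 25.9% ± 3.82 and 26.6% ± 5.26.

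**Figure D2:**
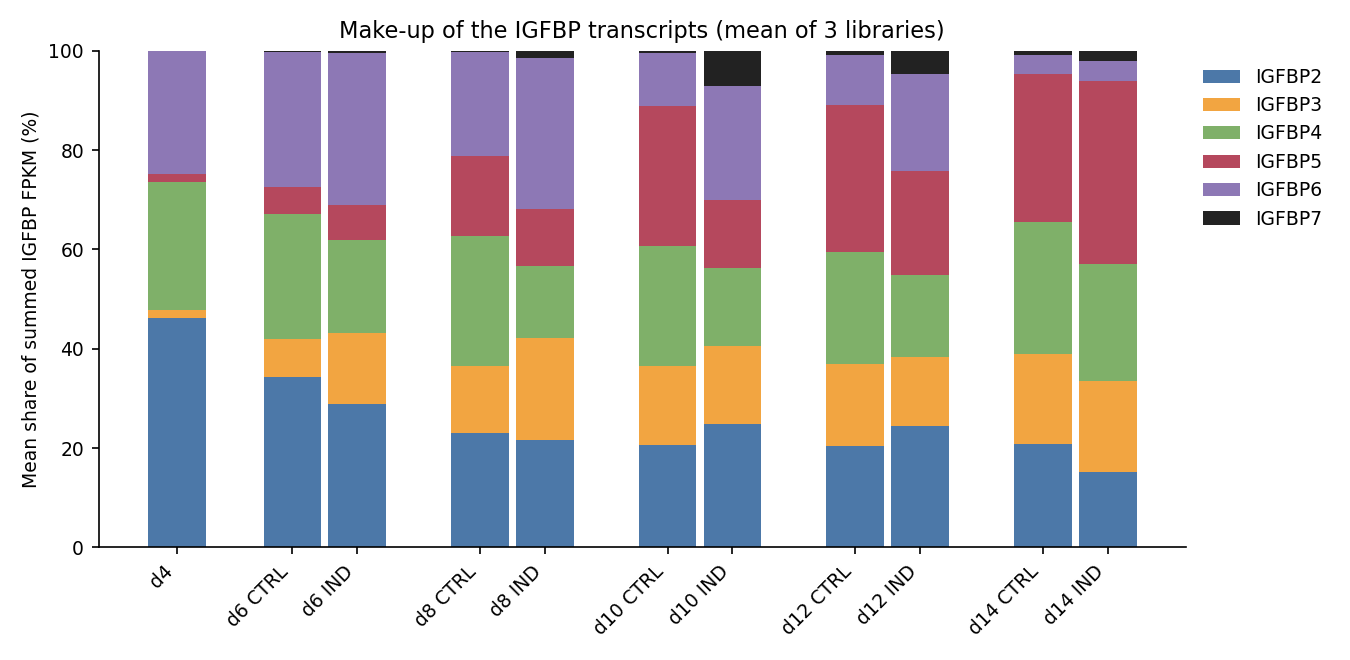
Mean share of each gene in the summed FPKM of the IGFBP genes (%), as stacked bars for the 11 groups of 3 libraries each. IGFBP1 is under 0.05% in every group and not drawn. IGFBP2 shrinks from 46.2% on day 4, IGFBP5 widens to 29.9% in day 14 CTRL, and the IGFBP7 band is 7.08% in day 10 IND, where it rests on replicate 2 (2.87% without it), and 4.65% in day 12 IND.

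The second question was what induction of FOXL2 changed at a given day (IND, induced against non-induced cells of that day). Of the 7 binding proteins, 4 were called higher on at least 1 day, and the share of all genes so called was not counted. The 4 were IGFBP3 and IGFBP5 on days 6 and 8, IGFBP2 on day 8 and IGFBP7 on days 6, 8, 12 and 14. IGFBP1, IGFBP4 and IGFBP6 were not called on any day with this test, although some of the alternative fits called IGFBP6, as given below. No member was called lower on any day. On day 6, 3 of 9 tested members were called, all higher, against 3.66% of all genes called and 1.29% called higher. The count was 4 of 9 on day 8 (14.2% of all genes called, 7.49% higher), 0 of 9 on day 10 (2.03%, 0.856% higher), 1 of 8 on day 12 (5.42%, 2.38% higher) and 1 of 8 on day 14 (8.43%, 3.21% higher). Without day 10 IND replicate 2, 3 members were called on day 10, and the number of all genes called went from 404 to 3768. The day 6 count was 0 without day 6 CTRL replicate 1 and 1 without CTRL replicate 3. On day 8, 2 members were called without IND replicate 1 or 2 or CTRL replicate 1 or 3. On day 12 the count was 2 without IND replicate 1 or 3, and on day 14 it was 0 without IND replicate 1 or 3 or CTRL replicate 1 or 2, and 3 without CTRL replicate 3.

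**Figure D3:**
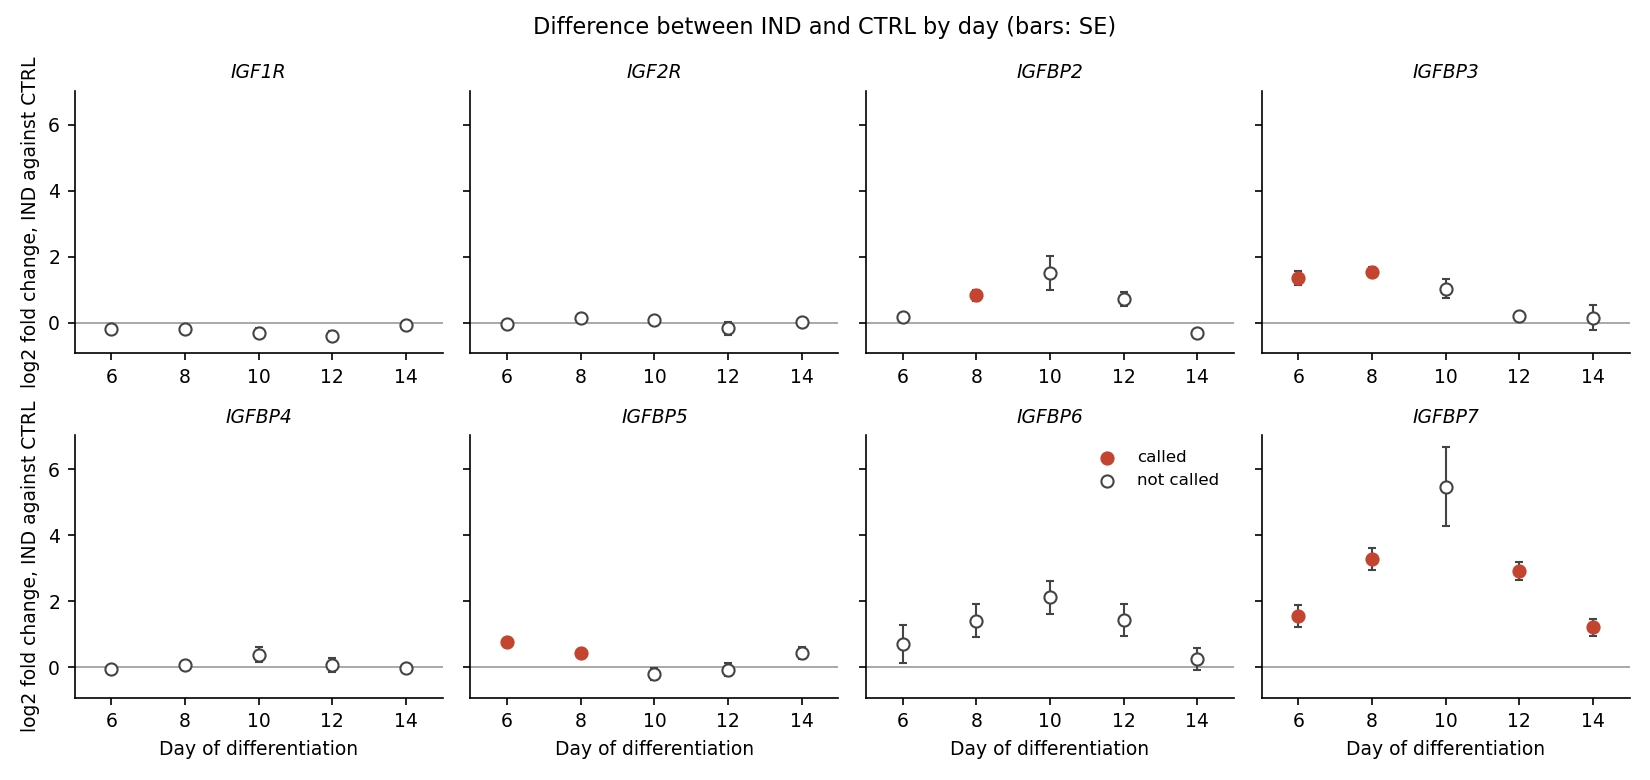
log2 fold change of IND against CTRL (edgeR, bars show the SE) on days 6 to 14 for 8 members. Filled points had an adjusted p under 0.05. IGFBP7 is above 1 on all 5 days, IGFBP3 and IGFBP5 are called on days 6 and 8, and the points of IGF2R lie between -0.18 and 0.15.

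IGFBP7 showed the largest difference. In IND it had 2.46, 3.81 and 6.99 CPM on day 6, 28.3, 27.0 and 13.7 CPM on day 8, and 32.8, 515 and 57.6 CPM on day 10. The later IND libraries had 91.7, 83.1 and 69.5 CPM on day 12 and 24.2, 35.1 and 23.6 CPM on day 14. Set beside the CTRL values above, all IND libraries were higher than all CTRL libraries of their day on each of the 5 days (groups did not overlap for 18.8%, 33.2%, 31.3%, 30.4% and 26.7% of all genes). The upregulation was 2.92-fold on day 6 (log2 fold change 1.54 ± 0.33, adjusted p = 0.0132), 9.71-fold on day 8 (3.28 ± 0.33, 0.000817), 7.56-fold on day 12 (2.92 ± 0.28, 0.00137) and 2.30-fold on day 14 (1.20 ± 0.27, 0.038).

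On day 10, the 515 CPM of IND replicate 2 were far above the 32.8 and 57.6 CPM of the other replicates of IGFBP7, and the test was not passed (log2 fold change 5.47 ± 1.2, adjusted p = 0.083). Without that library the log2 fold change was 3.25 and the adjusted p 0.00213. With all libraries, day 10 was called with DESeq2 (5.45, adjusted p = 7.86e-05) and with edgeR in 1 fit over all 33 libraries (5.46, 1.23e-05). The day 8 and day 12 calls were kept without any 1 library. On day 6, the call was lost without IND replicate 3 (adjusted p = 0.0733) or CTRL replicate 1 (0.121) or 3 (0.074). It was also lost with limma on log2(FPKM + 1) (0.129) and log2(FPKM + 0.1) (0.0768), and with edgeR in 1 fit over all 33 libraries (0.484). On day 14, it was lost without IND replicate 1, 2 or 3 (0.0578, 0.0611 and 0.0561) or CTRL replicate 1 or 2 (0.128 and 0.096). It was lost there with the replicate number as a block (0.071) and in 1 fit over all 33 libraries (0.468) as well.

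The response to induction was also tested for a difference between days. The interaction of day and induction, with 4 terms over 30 libraries, was called for 1 of 10 members (2.38% of all genes tested), and this was IGFBP7 (edgeR, Benjamini-Hochberg adjusted p = 0.0467). The call was lost without replicate 1, 2 or 3 of all groups (adjusted p = 0.231, 0.35 and 0.138) and with limma on log2(FPKM + 1) or log2(FPKM + 0.1) (0.0857 and 0.111). Without day 10 IND replicate 2 alone, the adjusted p was 0.0344, and IGFBP3 (0.0218) and IGFBP2 (0.0357) were called too. With all libraries, IGFBP3 had 0.0613 (0.0363 and called with the replicate block), IGFBP5 0.125 and IGFBP2 0.133, and the other members lay between 0.422 and 0.82. DESeq2 called IGFBP3 (adjusted p = 0.00304) and IGFBP5 (0.0421) beside IGFBP7 (0.00145). Without the low-count filter, IGFBP2 (1.21e-19), IGFBP3 (3.44e-17), IGFBP5 (4.35e-06) and IGFBP6 (2.46e-20) were called beside IGFBP7 (2.21e-80). These adjusted p were far below those of every other fit of the same genes, IGFBP6 having 0.52 in the main fit. The share of all genes called without the filter was not counted, and the cause was not tested, so no weight is put on these calls.

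IGFBP3 was called higher after induction on days 6 and 8. IND had 266, 334 and 484 CPM on day 6 and 796, 981 and 718 CPM on day 8. All of these libraries lay above the CTRL libraries of their day, with log2 fold changes of 1.35 ± 0.22 (adjusted p = 0.0227) and 1.54 ± 0.13 (0.000152), that is 2.54-fold and 2.90-fold. The day 8 call was kept without any 1 library, while that of day 6 was lost without IND replicate 2 (0.0542) or CTRL replicate 1 or 3 (0.20 and 0.156). The later days did not pass the test. IND had 577, 1130 and 597 CPM on day 10 (1.02 ± 0.29, adjusted p = 0.155), 575, 552 and 600 CPM on day 12 (0.21 ± 0.11, 0.322), and 527, 573 and 791 CPM on day 14 (0.14 ± 0.38, 0.882). The groups of days 10 and 12 did not overlap, and those of day 14 did. Without IND replicate 2, the day 10 difference was 0.60 (adjusted p = 2.19e-05), and without CTRL replicate 3 the day 14 difference was 0.62 (0.0378). With all libraries, day 10 was called with DESeq2 (1.00, adjusted p = 0.0175) and with edgeR in 1 fit over all 33 libraries (1.02, 0.00838).

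IGFBP5 was also called on days 6 and 8. It had 221, 197 and 289 CPM in day 6 IND and 632, 699 and 622 CPM in day 8 IND, above all CTRL libraries of these days. The upregulation was 1.68-fold on day 6 (log2 fold change 0.75 ± 0.13, adjusted p = 0.00431) and 1.34-fold on day 8 (0.42 ± 0.12, 0.0439). The call on day 6 was lost without CTRL replicate 1 (0.0945), and on day 8 without IND replicate 1, 2 or 3 (0.0981, 0.168 and 0.0964) or CTRL replicate 1 or 3 (0.0967 and 0.0995). The day 8 call was also lost with limma on log2(FPKM + 1) (0.0724) and log2(FPKM + 0.1) (0.0666), and with edgeR in 1 fit over all 33 libraries (0.259). Later groups of IGFBP5 overlapped. IND had 839, 659 and 961 CPM on day 10 (-0.21 ± 0.17), 933, 1140 and 1540 CPM on day 12 (-0.08 ± 0.19) and 1590, 1570 and 2130 CPM on day 14 (0.43 ± 0.18), with adjusted p of 0.562, 0.831 and 0.212. Without day 10 IND replicate 2, the day 10 value was -0.10 (adjusted p = 0.638). Day 14 was called without CTRL replicate 3 (0.61, adjusted p = 0.0201) and with the replicate block (0.44, 0.0288).

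IGFBP2 was called after induction on day 8 only. The IND libraries had 570, 786 and 884 CPM on day 6, 937, 1090 and 728 CPM on day 8 and 733, 2690 and 858 CPM on day 10. They had 1390, 1020 and 795 CPM on day 12 and 495, 605 and 486 CPM on day 14. The groups overlapped on day 6, IND was higher in all libraries on days 8, 10 and 12, and IND was lower in all libraries on day 14. Day 8 passed the test (1.77-fold, log2 fold change 0.82 ± 0.18, adjusted p = 0.024), and this call was lost without IND replicate 1 or 2 (0.0917 and 0.053) or CTRL replicate 1 or 3 (0.0612 and 0.0891). It was also lost with edgeR in 1 fit over all 33 libraries (0.136).

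The other days of IGFBP2 had log2 fold changes of 0.16 ± 0.14 (adjusted p = 0.715) on day 6, 1.49 ± 0.52 (0.249) on day 10, 0.72 ± 0.21 (0.0905) on day 12 and -0.33 ± 0.11 (0.0877) on day 14. Day 10 replicate 2 was again extreme, and without it the difference was 0.60 and was called (0.00775). With all libraries, day 10 was called with DESeq2 (1.46, adjusted p = 0.0342) and with edgeR in 1 fit over all 33 libraries (1.48, 0.0022). Day 12 was called without IND replicate 3 (0.89, adjusted p = 0.039). Day 14 was called lower without IND replicate 2 (-0.43, adjusted p = 0.0464) and with the replicate block (-0.33, 0.0469).

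IGFBP6 had large but variable differences. IND had 99.1, 245 and 392 CPM on day 6, 491, 359 and 255 CPM on day 8, and 192, 433 and 367 CPM on day 10. It had 352, 144 and 250 CPM on day 12, but 28.8, 62.0 and 29.2 CPM on day 14. IND did not overlap with CTRL on days 8, 10 and 12, days on which 33.2%, 31.3% and 30.4% of all genes tested did not overlap. The log2 fold changes were 0.70 ± 0.58 on day 6, 1.40 ± 0.50 on day 8, 2.12 ± 0.50 on day 10, 1.43 ± 0.48 on day 12 and 0.25 ± 0.33 on day 14, with adjusted p of 0.722, 0.152, 0.102, 0.136 and 0.738. The replicates of a group differed several-fold, and without CTRL replicate 2 day 8 was called (1.98, adjusted p = 0.00986). Without day 10 IND replicate 2, the day 10 value was 1.85 (adjusted p = 0.202). Day 10 was called with DESeq2 (2.1, adjusted p = 0.000212) and with edgeR in 1 fit over all 33 libraries (2.12, 0.00925). Day 8 was called with limma on log2(FPKM + 1) (1.48, adjusted p = 0.0434) and log2(FPKM + 0.1) (1.49, 0.0401).

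A list of 5 hepatocyte markers (ALB, APOA1, TTR, AHSG and FGB) had, like IGFBP6, higher levels in IND than in CTRL on days 8, 10 and 12. Its summed level was 120 to 191 CPM in day 8 IND against 48.9 to 102 CPM in day 8 CTRL, 97.8 to 140 against 35.0 to 66.7 CPM on day 10, and 108 to 152 against 24.6 to 62.3 CPM on day 12. On day 14 it was 30.8 to 77.3 CPM in IND and 28.5 to 35.3 CPM in CTRL. The day 6 groups overlapped (65.4 to 188 CPM in IND, 66.5 to 129 CPM in CTRL), as they did for IGFBP6. On day 4 the list summed to only 3.6 to 5.13 CPM, although IGFBP6 had 99.5 to 133 CPM. In day 8 CTRL, replicate 2 had both the highest sum of these markers and the highest level of IGFBP6. AHSG was at or under the limit of detection in CTRL on days 10, 12 and 14, and of the list only FGB was called higher, on day 12. Whether hepatocyte-like cells were present, and whether they had a part in the IGFBP6 levels, was not tested.

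Other marker lists differed between IND and CTRL on some or all of the days on which binding proteins were called, and not always in the same direction. On day 6, a list of 6 endothelial markers summed to 102 to 116 CPM in IND and 122 to 146 CPM in CTRL, with KDR called lower and none higher. On day 8, the same list summed to 157 to 170 CPM in IND and 126 to 137 CPM in CTRL, with CDH5, PECAM1 and TEK called higher and none of the list at the limit of detection. On day 12, when IGFBP7 differed 7.56-fold, the endothelial sums overlapped (73.9 to 82.7 CPM in IND, 72.4 to 91.3 CPM in CTRL), although CDH5 and PECAM1 were called higher. The 8 markers of intermediate mesoderm and coelomic epithelium had lower sums in IND than in CTRL on all 5 days, without overlap. They summed to 183 to 219 CPM in day 8 IND and 398 to 531 CPM in day 8 CTRL. Of these, GATA4, LHX1, LHX9, UPK3B and WT1 were called lower on day 8, but OSR1 was called higher. GATA4 and WT1 were called lower on all 5 days, and OSR1 higher from day 8 onwards. Of 6 markers of early supporting gonadal and granulosa cells, FOXL2 was called higher on all days, LGR5 on day 8, and none lower. Of 5 smooth muscle markers, ACTA2 was called higher on day 8, CNN1 lower on days 6 and 8, DES lower from day 8 onwards and MYH11 lower on day 14. The 6 stromal markers summed to 6890 to 9550 CPM in day 6 IND against 11700 to 16100 CPM in CTRL, and to 11500 to 15700 against 16100 to 19000 CPM on day 8. COL1A1 and PDGFRA were called lower on both days, COL1A2 on day 6 and DCN and LUM on day 8. On day 12 the stromal sums overlapped (21000 to 25900 CPM in IND, 23500 to 24900 CPM in CTRL), with COL1A1, LUM and PDGFRA called lower. On day 14 they were higher in IND (28700 to 33600 against 20300 to 26700 CPM), with COL3A1 called higher. Of 6 neuronal markers, 3 were called lower on day 8, 3 on day 12 and 4 on day 14, and none higher. Day 10 IND replicate 2 had the highest levels of IGFBP2, IGFBP3, IGFBP4 and IGFBP7 of all libraries. It had 1910 CPM of 5 pluripotency markers while the lowest library of its group had 396 CPM. It also had 57500 CPM of 6 stromal markers while the lowest had 18500 CPM. The part of these cells in the levels of the binding proteins was not tested.

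IGFBP4 and IGF2R were not called on any day. IGFBP4 had 202, 239 and 208 CPM in day 6 IND, 319, 482 and 274 CPM in day 10 IND and 394, 355 and 384 CPM in day 14 IND, groups that overlapped with CTRL, and its log2 fold changes lay between -0.06 and 0.38 over the 5 days (0.38 ± 0.23 on day 10, and 0.08 without IND replicate 2). IGF2R lay between -0.18 ± 0.20 on day 12 and 0.15 ± 0.12 on day 8. Without day 8 IND replicate 3, the day 8 value of IGF2R was 0.29 and was called (adjusted p = 0.00659). The day 10 value of IGF2R was 0.07 with and 0.04 without IND replicate 2.

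IGF1R had lower values in IND on 4 days and did not pass the test on any day. Day 6 had 137, 146 and 142 CPM in IND against 172, 166 and 156 CPM in CTRL, and day 8 had 164, 163 and 134 CPM against 182, 172 and 174 CPM. On day 10 there were 146, 111 and 143 CPM in IND against 184, 162 and 161 CPM in CTRL, and on day 12 there were 102, 150 and 148 CPM against 170, 182 and 187 CPM. Groups of IGF1R did not overlap on these 4 days (18.8%, 33.2%, 31.3% and 30.4% of all genes tested did not), and they did overlap on day 14. The log2 fold changes were -0.21 ± 0.09, -0.19 ± 0.08, -0.31 ± 0.13, -0.42 ± 0.15 and -0.09 ± 0.08 from day 6 to day 14, with adjusted p of 0.291, 0.163, 0.333, 0.16 and 0.596. Day 12 was called without IND replicate 1 (-0.27, adjusted p = 0.0308), which was the lowest library of its group. Without day 10 IND replicate 2, the day 10 value was -0.22 (adjusted p = 0.0596).

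IGF1 and IGFBP1 could be tested for induction only in part. IGF1 passed the low-count filter on day 10 alone (log2 fold change 1.68 ± 0.95, adjusted p = 0.452), and without IND replicate 2, which had 1.22 CPM, the value was 0.35. IGFBP1 was tested on day 6 (0.01 ± 0.58, adjusted p = 0.997) and day 8 (0.99 ± 0.50, 0.226). On days on which IGF1 was not tested, IND had 0.238, 0.21 and 0.636 CPM against 0.0295, 0.159 and 0.0474 CPM in CTRL on day 6, and 0.234, 0.41 and 0.183 CPM against 0.0668, 0.0729 and 0.134 CPM on day 8. These groups did not overlap, at 1 to 28 counts per library, nor did those of IGFBP1 on day 8 (0.26, 0.282 and 0.365 CPM in IND, 0.178, 0.17 and 0.107 CPM in CTRL). Some CTRL counts of IGF1 were at or under the limit of detection. Of all genes that passed the filter, 18.8% did not overlap on day 6 and 33.2% on day 8, shares that do not cover genes removed by it, such as IGF1. On days 12 and 14 the groups of IGF1 overlapped.

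Differentiation with induction (DIFF + IND, IND against day 4) shares its day 4 libraries with DIFF, so its values are given only side by side. Members called were 4 of 9 on day 6 (26.5% of all genes), 6 of 9 on day 8 (35.8%), 4 of 9 on day 10 (21.6%), 6 of 9 on day 12 (37.1%) and 8 of 9 on day 14 (50.6%). IGFBP3 was 5.02 ± 0.17 above day 4 on the log2 scale in day 8 IND, and 3.49 ± 0.15 in day 8 CTRL. IGFBP5 was higher by 5.6 ± 0.23 in day 14 IND and by 5.18 ± 0.26 in day 14 CTRL. For IGFBP7, the log2 fold change was 8.04 ± 1.4 on day 10 (5.83 without day 10 IND replicate 2, 8.65 without day 4 replicate 3), 6.69 ± 0.44 on day 12 and 5.12 ± 0.44 on day 14, so that the day with the highest value depends on day 10 IND replicate 2 (7.34 and 5.80 without day 4 replicate 3). IGFBP6 was above day 4 in IND on day 8 (1.66 ± 0.22, adjusted p = 0.000454), day 10 (1.51 ± 0.31, 0.0136) and day 12 (1.09 ± 0.28, 0.0115), and below it on day 14 (-1.56 ± 0.27, 0.00108). IGF1R was called higher than day 4 on days 6, 8 and 14, IGFBP4 higher on days 12 and 14, IGFBP2 lower on day 14, and IGF1 lower on days 8, 12 and 14. The IGF1 calls depend on day 4 replicate 2, without which they were -1.11, -1.48 and -1.29 and not called (adjusted p = 0.23, 0.186 and 0.167, against -1.99, -2.34 and -2.19 with it). They were also lost without day 4 replicate 1 or any IND replicate on day 8 (0.0718 to 0.148), without IND replicate 1 or 3 on day 12 (0.0868 and 0.0972), and without IND replicate 1 or 3 or day 4 replicate 1 on day 14 (0.0837, 0.115 and 0.0501). The day 6 call of IGF1R was lost without IND replicate 2 (0.0702) or day 4 replicate 1 (0.0719), and that of IGFBP7, 2.53 with all libraries and 3.16 without day 4 replicate 3, without IND replicate 3 (0.0603). The day 12 call of IGFBP4 was lost without IND replicate 1 or day 4 replicate 1 or 2 (0.146, 0.145 and 0.136). The day 10 call of IGFBP6 was lost without day 4 replicate 1 or 3 (0.0762 and 0.0694). Limma on log2(FPKM + 1) or log2(FPKM + 0.1) lost the IGF1 calls (0.0872 to 0.188) and the day 12 call of IGFBP4 (0.0746 and 0.0702). With edgeR in 1 fit over all 33 libraries, the day 12 call of IGFBP6 (0.0902) and the day 14 call of IGFBP2 (0.129) were lost. Without the low-count filter, the day 10 call of IGFBP7 was lost (0.0745).

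The summed FPKM of the IGFBP genes was higher in IND than in CTRL on days 8, 10 and 12 without overlap between libraries. It was 353 FPKM on day 4 (328 to 398) and 468 FPKM in day 8 CTRL (390 to 573) against 877 FPKM in day 8 IND (741 to 946). On day 10 it was 528 (510 to 558) against 1120 FPKM (707 to 1780, with a mean of 791 without IND replicate 2), on day 12 665 (595 to 721) against 907 FPKM (771 to 1070), and on day 14 679 (621 to 789) against 735 FPKM (682 to 806), where the libraries overlapped. In day 8 IND, IGFBP6 held 30.5% ± 6.91 (SD, n = 3), IGFBP2 21.6% ± 1.90 and IGFBP3 20.5% ± 2.07 of the sum, while IGFBP5 led in day 14 IND with 36.9% ± 3.44. IGFBP7 held 0.107% ± 0.072 on day 4, 7.08% ± 7.31 in day 10 IND (2.87% without replicate 2), 4.65% ± 0.76 in day 12 IND and 1.96% ± 0.52 in day 14 IND.

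Other genes of the IGF pathway were counted over a list of 30 ligands, receptors, proteases, inhibitors and signalling genes. Of the 29 tested, 3 were called in IND on day 6 (all lower, against 3.66% of all genes called), 7 on day 8 (3 higher, 4 lower, against 14.2%), 2 on day 10 (both lower, against 2.03%), 6 on day 12 (2 higher, 4 lower, against 5.42%) and 8 on day 14 (1 higher, 7 lower, against 8.43%). The medians of the log2 fold changes lay between -0.15 and 0.01. Genes of the list called on at least 3 days were named, and these were PAPPA, ADAM12 and HTRA1, which encode proteases that cut IGFBPs. The share of all genes called on at least 3 days was not counted. An excess of such calls among the proteases therefore cannot be read from these 3 genes.

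PAPPA, the metalloproteinase that cleaves IGFBP4, was lower after induction. It had 17.5, 19.6 and 22.8 CPM in day 6 IND against 40.3, 32.5 and 32.4 CPM in CTRL, and 28.1, 30.5 and 25.9 CPM in day 8 IND against 46.4, 49.5 and 57.2 CPM. Day 10 had 36.8, 18.3 and 32.9 CPM against 86.3, 72.6 and 77.3 CPM, and day 12 had 26.7, 47.5 and 46.7 CPM against 83.7, 94.8 and 91.6 CPM. These groups did not overlap, whereas day 14 (54.8, 73.3 and 75.6 CPM against 69.7, 50.2 and 106 CPM) did. PAPPA was downregulated by log2 fold changes of -0.81 ± 0.13 on day 6 (adjusted p = 0.00156), -0.85 ± 0.10 on day 8 (0.00026), -1.40 ± 0.25 on day 10 (0.0476) and -1.16 ± 0.20 on day 12 (0.0146), with -0.15 ± 0.29 on day 14 (0.829). The day 10 call of PAPPA was lost without IND replicate 1 or 3 or CTRL replicate 1, 2 or 3 (adjusted p between 0.0891 and 0.277) and with the replicate block (0.101), but not without IND replicate 2 (-1.17, adjusted p = 1.33e-06), and the day 12 call without CTRL replicate 2 (0.0612) or 3 (0.0616). The day 6 call was lost with edgeR in 1 fit over all 33 libraries (0.0605), and the day 10 call also with limma on log2(FPKM + 0.1) (0.0625).

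ADAM12, a metalloproteinase that cuts IGFBP3 and IGFBP5, had the same direction. It went from 16.1, 11.4 and 15.2 CPM in CTRL to 6.36, 5.64 and 5.50 CPM in IND on day 6, and from 21.7, 17.5 and 23.1 CPM to 7.26, 8.81 and 6.78 CPM on day 8. The values were 51.3, 48.6 and 37.5 CPM against 12.6, 15.1 and 13.2 CPM on day 10, and 60.4, 57.5 and 54.7 CPM against 11.8, 17.4 and 24.5 CPM on day 12. IND was below CTRL in all libraries on these days, and on day 14 the groups overlapped (38.7 to 49.3 CPM in IND, 42.7 to 80.5 CPM in CTRL). The log2 fold changes of ADAM12 were -1.29 ± 0.17, -1.44 ± 0.15, -1.71 ± 0.18 and -1.68 ± 0.23 on days 6 to 12 (adjusted p = 0.000328, 0.000107, 0.0101 and 0.00532), and -0.50 ± 0.23 on day 14 (0.266). Day 10 was lost without IND replicate 1 or 3 or CTRL replicate 1 or 2 (0.0556 to 0.0881) and with the replicate block (0.0721), but not without IND replicate 2 (-1.82, adjusted p = 3.27e-06), and day 14 was gained without CTRL replicate 2 (-0.70, 0.00997) and with the block (-0.47, 0.0393).

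HTRA1, a serine protease that also degrades IGFBP5, went the other way. On day 6 the groups overlapped (17.7, 24.3 and 25.3 CPM in IND, 17.8, 20.9 and 20.1 CPM in CTRL). Day 8 had 46.8, 43.6 and 28.8 CPM in IND against 13.1, 17.0 and 16.4 CPM in CTRL, day 12 had 130, 131 and 97.0 CPM against 33.7, 39.7 and 40.0 CPM, and day 14 had 73.5, 86.5 and 88.0 CPM against 33.7, 32.2 and 43.6 CPM. HTRA1 was upregulated on these 3 days without overlap, with log2 fold changes of 1.36 ± 0.19 (adjusted p = 0.00204), 1.67 ± 0.15 (0.00122) and 1.18 ± 0.12 (7.08e-05). On day 10, IND had 55.3, 208 and 73.5 CPM against 20.6, 23.2 and 28.9 CPM in CTRL, and the difference of 2.26 ± 0.53 did not pass the test (adjusted p = 0.101), but did without IND replicate 2 (1.42, adjusted p = 0.00159). With all libraries, day 10 was called with DESeq2 (2.24, adjusted p = 0.000145) and with edgeR in 1 fit over all 33 libraries (2.25, 8.61e-06). On day 4, before induction, HTRA1 had 132, 113 and 106 CPM and PAPPA 160, 169 and 104 CPM, above all later CTRL libraries in the case of HTRA1.

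**Figure D4:**
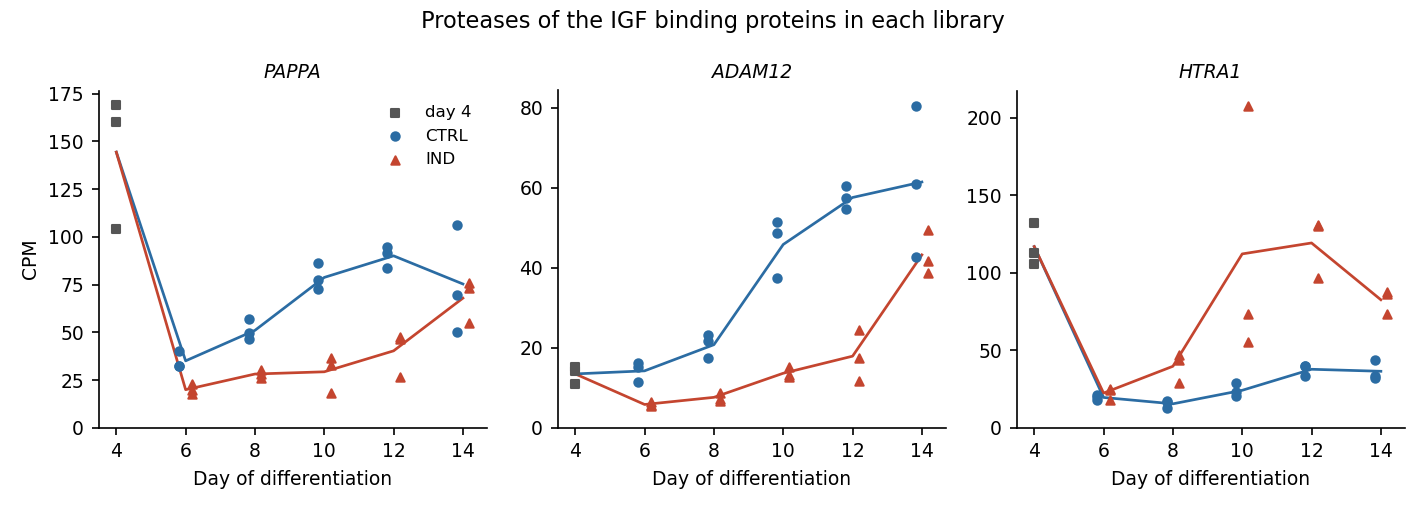
CPM of PAPPA, ADAM12 and HTRA1 against the day of differentiation, with 1 point per library (squares day 4, circles CTRL, triangles IND) and lines through the group means. PAPPA and ADAM12 lie lower in IND than in CTRL on days 6 to 12, and HTRA1 lies higher in IND from day 8 onwards.

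IGFBP7, the only member called after induction on at least 3 days, was also compared with 13809 protein-coding genes over the 33 libraries. The 2 genes with the highest Pearson correlation of log2 CPM were LIMS2, an adaptor of integrin adhesions (r = 0.955), and MAGED2 (r = 0.95). Without day 10 IND replicate 2, the 2 genes were LIMS2 (r = 0.964) and KAZALD1 (r = 0.946), an extracellular protein with an IGFBP-type domain. These values describe 33 libraries that share day, condition and normalization. LIMS2 had 29.2, 28.3 and 18.1 CPM in day 8 IND and 6.07, 7.26 and 9 CPM in day 8 CTRL, and 74.0 CPM in day 10 IND replicate 2, where IGFBP7 was at 515 CPM.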

How the data were processed

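The authors had reads trimmed with fastp 0.23.2, mapped to GRCh38 with HISAT2 2.0.5 and counted per gene with featureCounts 1.5.0-p3, per the labels, and deposited raw fragment counts of 33 non-directional poly(A) libraries. Beside them they deposited FPKM, from the authors' own scaling of counts by gene length and library total, with a further constant in each library (0.9426 to 1.125). The members and gene lists were chosen with earlier results of these data known. For this report, edgeR 4.0.16 (R 4.3.3) gave TMM-normalized CPM and, after filterByExpr, log2 fold changes with the robust quasi-likelihood test and Benjamini-Hochberg adjustment over all genes tested. The SE is the absolute log2 fold change divided by the root of F. Intervals of depth cover counting error only.

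Named were the 10 members, genes of a 30-gene IGF pathway list called in IND on at least 3 days, and, for a member called in IND on at least 3 days, the 2 protein-coding genes (mean of at least 1 CPM) most correlated with it. Marker lists came from general knowledge. The fits were repeated with DESeq2 1.42.0, with RLE factors, without the filter or with a mean of at least 50 counts, in 1 fit over all 33 libraries, with limma 3.58.1 on log2(FPKM + 1) and log2(FPKM + 0.1), with the replicate block and without each replicate. Replicates differed by more than counting error (chi-squared per gene 7.82 to 246 over 33 pairs). On simulated data the edgeR comparison for day 8 recovered 182 of 200 changed genes over 19057 genes, with 13 false among 195 calls. The interaction test recovered 134 of 200 over 21881 genes, with 4 false among 138. Apart from the changed genes, simulated means were the same in all groups, and for the interaction only day 14 IND was changed. The real day 8 comparison called 2752 genes, so these rates need not hold for the real data. RT-qPCR and immunostaining were not analysed here.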

Additional observations from a re-analysis of the deposited data

Results flagged for a closer look

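The response of IGFBP7 to induction differed between days by a test of the difference itself, the interaction of day and induction (edgeR, Benjamini-Hochberg adjusted p = 0.0467). IND was higher than CTRL in 9 of 9 pairs of libraries on each of the 5 days, with log2 fold changes of 1.54, 3.28, 5.47, 2.92 and 1.20 from day 6 to day 14. The day 10 value rests on replicate 2 of IND (3.25 without it), and without that library the interaction had an adjusted p of 0.0344. The call was lost without replicate 1, 2 or 3 of all groups (0.231, 0.35 and 0.138) and with limma on log2(FPKM + 1) and log2(FPKM + 0.1) (0.0857 and 0.111).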

How the results depend on the processing

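No value of a member or named protease that was called in either setting turned its direction. Over the alternatives, calls of members were lost in 30 and gained in 28 of 599 cases for IND against CTRL, 32 and 15 of 624 for CTRL against day 4, 31 and 16 of 625 for IND against day 4, and 5 and 9 of 108 for the interaction. For the 3 proteases it was 15 and 7 of 210. In CTRL against day 4, limma on either FPKM scale lost the IGF1 calls of days 6, 8 and 10 (adjusted p between 0.0526 and 0.133). Limma also lost the IGFBP4 call of day 10 (0.0611 and 0.0584), as did edgeR in 1 fit over all 33 libraries (0.0637). That 1 fit lost the day 8 call of IGFBP7 (0.169) and the IGFBP2 calls of days 8 and 10 (0.147 and 0.131). The causes of the changes were not tested.

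The number of members called after induction was 4 on day 10 with DESeq2 and 4 in 1 fit over all 33 libraries, against 0. In that fit it was 2 on days 8 and 12 and 0 on day 14, and for IND against day 4 on day 10 it was 7 instead of 4. DESeq2 called 2 on days 12 and 14, no filter on low counts 2 on day 12 and 3 on day 14, and the replicate block 2 on day 14. For the interaction, 1 became 3 with DESeq2, 5 without filter, 0 with limma on either FPKM scale and 2 with the replicate block. It became 3 without day 10 IND replicate 2, an alternative chosen after seeing the data. The share of all genes called by the interaction in these alternatives was not counted. DESeq2 gave no adjusted p for 1 member on days 10, 12 and 14 of IND against CTRL and on day 10 of IND against day 4.

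For all genes after induction, 700 on day 6 became 1209 without filter, 359 with log2(FPKM + 1), 413 with log2(FPKM + 0.1) and 464 in 1 fit over all libraries. Day 8 went from 2752 to 1599 in 1 fit. Day 10 went from 404 to 1787 with DESeq2, 15 with the replicate block and 3325 in 1 fit, day 12 from 1080 to 1956 with DESeq2 and 1878 without filter, and day 14 from 1606 to 2448 without filter and 861 in 1 fit. For the pathway list, day 6 (3) became 5 with DESeq2 and 6 without filter, day 8 (7) 11 without filter, day 10 (2) 5 with DESeq2, 1 with log2(FPKM + 0.1), 0 with the block and 8 in 1 fit, day 12 (6) 10 in 1 fit and day 14 (8) 2 in 1 fit.

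Leaving out 1 library gave 0 to 3, 2 to 5, 0 to 3, 1 to 2 and 0 to 3 members called after induction on days 6 to 14, 348 to 915, 1321 to 4732, 11 to 3768, 417 to 1979 and 905 to 1987 genes in all, and 2 to 4, 4 to 11, 0 to 12, 2 to 10 and 5 to 9 pathway genes. It gave 3 to 6, 4 to 7, 4 to 7, 4 to 6 and 6 to 7 members for CTRL against day 4, 3 to 6, 5 to 8, 3 to 5, 4 to 6 and 7 to 8 for IND against day 4, and 0 to 0 for the interaction with 1 replicate number left out.

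Replicate numbers gave no clear sign of pairing, although 3 libraries per group are too few to exclude it. The deviations of libraries with the same number correlated between -0.166 and 0.131 for IND and CTRL, with 3 of 15 over 0.1, and 7 of 15 libraries correlated best with their own number. For CTRL and day 4 the range was -0.161 to 0.238, with 2 of 15 over 0.1, and 5 of 15 correlated best with their own number. Against day 4, the replicate block added calls for IGFBP6 in day 6 CTRL (adjusted p = 0.0427) and for IGFBP4 in day 8 CTRL (0.0447) and day 8 IND (0.0429). Few counts limit IGF1 and IGFBP1 in all groups and IGFBP7 on day 4.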
